A study of Arabidopsis thaliana with 3 samples.

Results

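This account covers the sites of 2 classes of base change, G-to-A and C-to-T, on chromosome 2 of the plant Arabidopsis thaliana, in a series that mapped the thm1 mutation by bulked segregant analysis of leaf DNA. Sites were taken where both listed alleles are single bases and where the change, read from the allele called in WTa to the other listed allele, is G-to-A or C-to-T. There were 203 such sites, 74 G-to-A and 129 C-to-T, of 299 variant sites of any class on chromosome 2 and 1990 in all. Leaf DNA was sequenced in 3 libraries: the thm1_like pool (genotype label thm1 mutant), the WTa_like pool (genotype label WT) and the plain wild type WTa, whose allele sets the direction of each change. With a single library to a group there are no replicates. The sources used here do not give the number of plants in a pool, their age, the cross or the mutagen.

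Pooling plants by phenotype turns each pool into a measure of allele frequency. At a site unlinked to the phenotype, both pools are drawn from the same allele frequency, and the closer a site lies to the selected mutation, the further the pools part. Alkylating mutagens such as ethyl methanesulfonate act mainly on guanine, so a lesion on the listed strand reads as G-to-A and a lesion on the opposite strand as C-to-T. Since the strands part at replication, a chromosome that descends from a single treated strand can carry 1 class of change over a long stretch.

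The SNP-index is the share of a pool's reads at a site that do not carry the WTa allele, and delta is that of the thm1_like pool less that of the WTa_like pool. Over the 203 sites, the thm1_like pool had a median of 25 reads (range 7 to 63), the WTa_like pool 24 (7 to 59) and WTa 13 (2 to 36). WTa had fewer than 5 reads at 3 sites. It carried the alternative allele at 1 site. Every site of the table has an index of at least 0.3 in at least 1 pool, in the deposited rounded values. A site below 0.3 in the WTa_like pool therefore had to be at or above 0.3 in the thm1_like pool, and the reverse. This fixed the sign of delta at 102 of the 203 sites, 73 of them low in the WTa_like pool and 30 low in the thm1_like pool, with 1 site counted in both because its thm1_like index, 0.297, rounds to 0.3. All read intervals below are exact (Clopper-Pearson) at 95% and cover counting error only. Where a count is 0, a limit of 3 counts of the total is given beside the interval.

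The classes were laid out in long stretches along the chromosome (positions on the TAIR10 build). From 144349 to 7175811, 68 of 80 sites were G-to-A. From 7443462 to 18620229, 117 of 119 sites were C-to-T. The last 4 sites, from 19044037 to 19498718, were G-to-A again. No site separated 7175811 from 7443462, so the first stretch gave way to the next within 268 kb. The change to the last 4 fell within 424 kb, between 18620229 and 19044037.

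Blocks were counted as unbroken runs of at least 5 sites of 1 class. There were 7, and they held 174 of the 203 sites. The first 4 were G-to-A: 18 sites from 144349 to 2566760, 9 sites from 2652988 to 3069753, 12 sites from 4267932 to 5246395 and 18 sites from 5282523 to 7175811. The other 3 were C-to-T. The longest held 80 sites over 7304 kb, from 7443462 to 14747841, at 11.0 sites per Mb. A block of 7 sites from 14949700 to 15477828 and a block of 30 sites from 15660630 to 18620229 followed it. Only lone G-to-A sites parted these 3, at 14813821 in AT2G35140 and at 15564491, which lay 3736 bp from PAL1, the gene of a phenylalanine ammonia-lyase at the entry to phenylpropanoid synthesis.

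**Figure D1:**
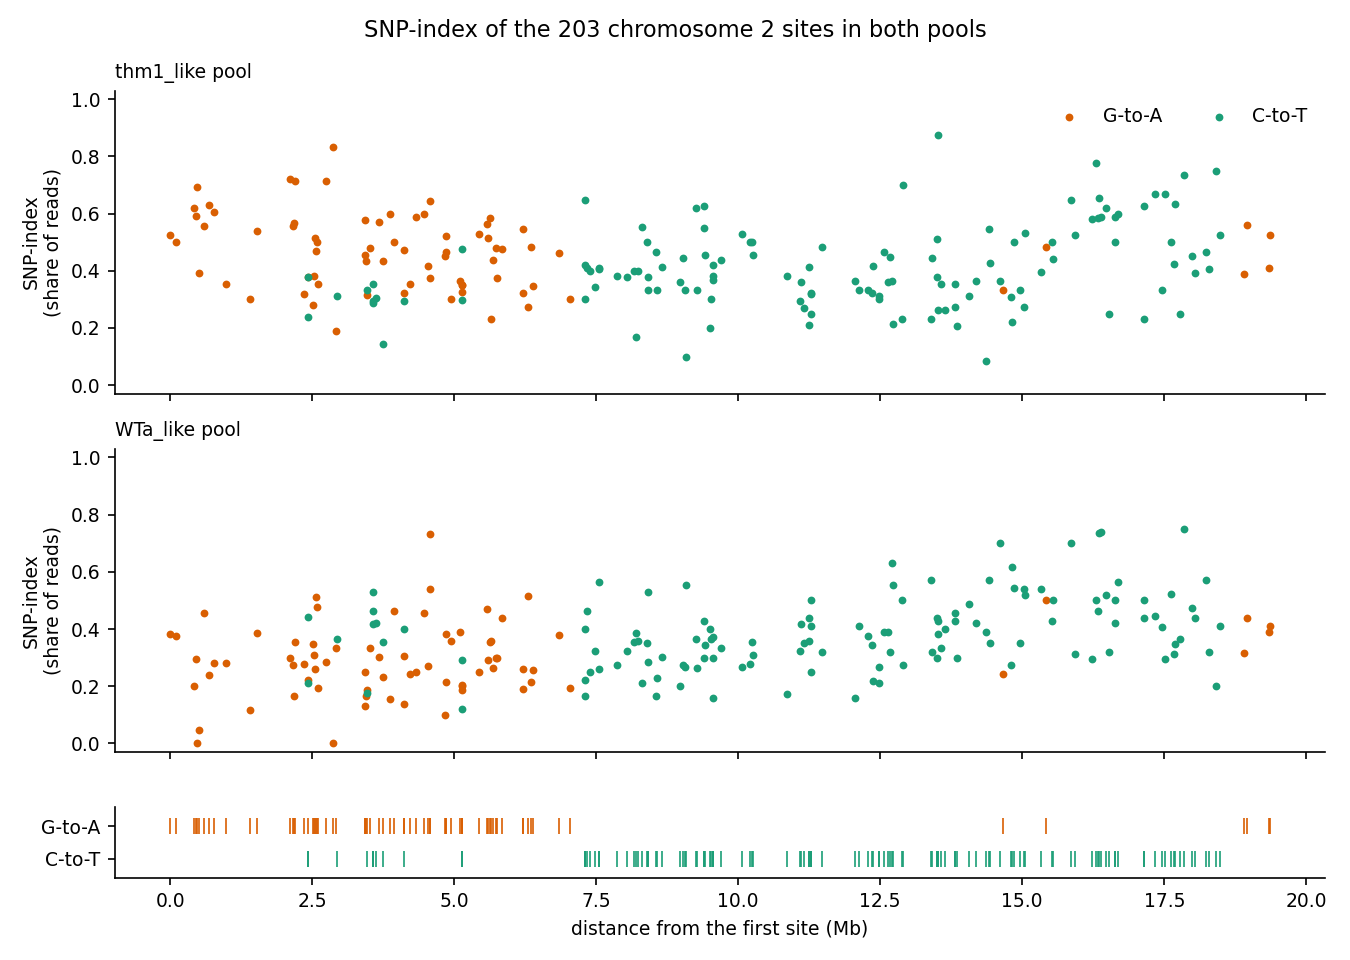
SNP-index of each of the 203 sites in the thm1_like pool (top) and the WTa_like pool (middle) against the distance from the first site in Mb, with a tick per site by class at the bottom. Of the 80 sites of the first stretch 68 are G-to-A, 117 of the 119 sites that follow are C-to-T, and the last 4 are G-to-A.

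The 12 C-to-T sites inside the first stretch differed in position from the other C-to-T sites. Of these 12, 10 had another variant site of some class within 100 bp, against 0 of the 117 C-to-T sites from 7443462 onward. Among the 68 G-to-A sites of the first stretch, 9 had such a neighbour. The pair at 2566760 and 2566762 in the pseudogene AT2G06470 had 11 of 29 thm1_like reads at both sites, against 4 of 18 and 4 of 19 WTa_like reads. At 3610290 and 3610296 the counts were 6 of 19 and 6 of 18 thm1_like reads, against 3 of 16 and 3 of 17 WTa_like reads. Sites this close can lie on the same sequenced fragments, so they are not separate measurements. Another cluster, 3718370, 3718378 and 3718393, lay outside gene bounds and was C-to-T throughout. Its counts were 12 of 41, 12 of 34 and 8 of 28 thm1_like reads, against 19 of 41, 18 of 34 and 10 of 24 WTa_like reads. The largest cluster held 5 sites of both classes between 5282385 and 5282532, in the pseudogene AT2G12860.

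All 19 sites with such a neighbour lay between 2566760 and 6449057. Their mean index was 0.324 for the thm1_like pool (SD 0.0517 over sites) and 0.307 for the WTa_like pool (SD 0.134). None reached 0.5 in the thm1_like pool. Their median depth was 37 thm1_like reads and 34 WTa_like reads, above the medians of all 203. When these 19 were left out, the first stretch kept 59 sites that were G-to-A and 2 that were C-to-T. Its G-to-A sites then fell into 3 blocks, of 25, 6 and 28 sites. Of the 19, 12 lay in pseudogenes and 7 outside gene bounds. The part of the higher depth in these values was not tested.

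The pools differed most at the start of the chromosome. In the first block the mean index was 0.531 for the thm1_like pool (SD 0.132 over 18 sites) and 0.258 for the WTa_like pool (SD 0.119). Mean delta there was 0.27 (SD 0.165), and delta was above 0 at all 18 sites. The table's lower limit fixed that sign at 12 of the 18, which were below 0.3 in the WTa_like pool. At the other 6 sites delta was also above 0, with a mean of 0.22. Summed over the block, 246 of 463 thm1_like reads lacked the WTa allele (share 0.531, interval 0.485 to 0.578), against 112 of 429 WTa_like reads (share 0.261, interval 0.220 to 0.305). These intervals do not overlap. Linked sites share the plants of a pool, so an interval from reads is too narrow as a statement about the pool's plants.

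The other G-to-A blocks had smaller differences. Mean delta was 0.17 in the second (SD 0.305 over 9 sites), 0.11 in the third (SD 0.192 over 12) and 0.12 in the fourth (SD 0.135 over 18). In the second block the summed share was 0.425 for the thm1_like pool (interval 0.361 to 0.491) and 0.336 for the WTa_like pool (0.273 to 0.405), and the intervals overlap. Over its 7 sites with at least 10 reads in each pool, mean delta was 0.04. In the third block the summed shares were 0.433 for the thm1_like pool (interval 0.381 to 0.486) and 0.316 for the WTa_like pool (0.266 to 0.369). In the fourth they were 0.424 for the thm1_like pool (0.379 to 0.470) and 0.299 for the WTa_like pool (0.259 to 0.342). At sites with both indices at or above 0.3, the third block had a mean delta of -0.01 over 6 sites and the fourth 0.12 over 6.

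Averaged over the longest C-to-T block, the pools were close. The mean index was 0.383 for the thm1_like pool (SD 0.127 over 80 sites) and 0.355 for the WTa_like pool (SD 0.112). Mean delta was 0.03 (SD 0.185), with 48 sites higher and 32 lower in the thm1_like pool. The table's lower limit fixed the sign of delta at 40 of the 80. Of the 40 with both indices at or above 0.3, 23 were higher and 17 lower, with a mean delta of 0.03. Over the block, 781 of 2030 thm1_like reads lacked the WTa allele (share 0.385, interval 0.363 to 0.406), against 640 of 1872 WTa_like reads (share 0.342, interval 0.320 to 0.364). Delta was not even along this block. From 8 to 10 Mb its mean was 0.07, with 22 of 27 sites higher in the thm1_like pool. The table's limit fixed the sign at 14 of those 27. From 13964061 to 14747841 mean delta was -0.13, with 1 of 9 sites higher. The next block, of 7 sites, was the only 1 of the 7 with a lower share in the thm1_like pool. There 59 of 168 thm1_like reads lacked the WTa allele (share 0.351, interval 0.279 to 0.428), against 101 of 195 WTa_like reads (share 0.518, interval 0.445 to 0.590). Mean delta was -0.12 (SD 0.161). Over the block's 4 sites with both indices at or above 0.3 it was -0.05, with 1 of the 4 higher in the thm1_like pool. The site C14971313T alone gave 41 of the 168 thm1_like reads and 39 of the 195 WTa_like reads. In the last block both pools were high, with a summed share of 0.543 for the thm1_like pool (interval 0.507 to 0.578) and 0.451 for the WTa_like pool (0.414 to 0.489). The 4 G-to-A sites after it had a mean delta of 0.08 (SD 0.0469).

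**Figure D2:**
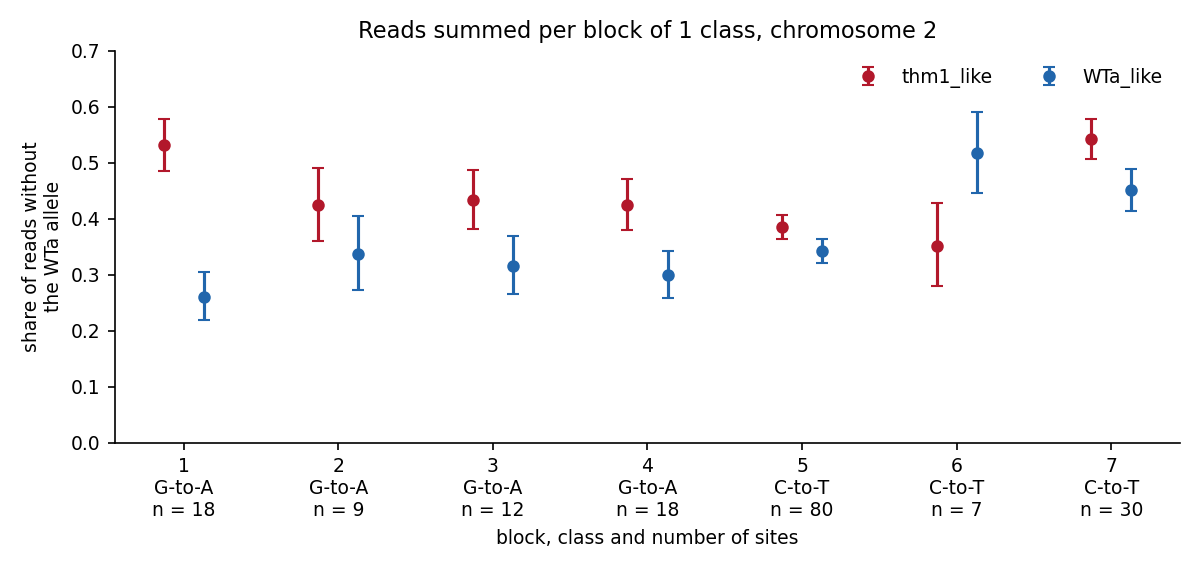
Share of reads without the WTa allele, summed over the sites of each of the 7 blocks in chromosome order, for the thm1_like pool (left point) and the WTa_like pool (right point), with exact 95% intervals from the reads. The gap is largest in the first block (0.531 against 0.261), and the sixth is the only block with the thm1_like pool lower (0.351 against 0.518).

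Within the blocks, much of the spread between sites was of the size that read counts give. In the longest block the SD of delta over sites was 0.185, with 0.156 computed from binomial counting at the same depths. In the fourth block it was 0.135 with 0.141 from counting. The second block was wider, with 0.305 and 0.159 from counting, and held the site of largest delta on the chromosome. Over all 203 sites the indices of the pools were not related (Pearson's r = -0.01 across sites), a description of linked sites to which the table's lower limit of 0.3 contributes.

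Read in bins of 2 Mb regardless of class, mean delta was 0.27 in the first bin (12 sites), then 0.13 (31 sites), 0.13 (30), 0.09 (15), 0.07 (27), 0.04 (14), 0.00 (25), -0.09 (18), 0.08 (21) and 0.09 (10) in the last. The mean WTa_like index was lowest in the first bin, at 0.255, and highest from 14 to 16 Mb, at 0.482. The mean thm1_like index was 0.525 in the first bin, lay between 0.373 and 0.442 from 2 to 16 Mb, and was 0.539 from 16 to 18 Mb. The large delta of the first bin thus came with a low WTa_like index and a thm1_like index slightly above 0.5. Of that bin's 12 sites, 8 were below 0.3 in the WTa_like pool, so the table's limit fixed the sign of delta at those 8. Of 179 windows of 1 Mb with at least 5 sites, 141 had a mean delta above 0 and 38 below. The highest window, at 0.3 to 1.3 Mb, had a mean thm1_like index of 0.555 and a mean WTa_like index of 0.224 over its 8 sites, and delta was above 0 at all 8. Only 1 of these sites, with a WTa_like index of 0.455 and a delta of 0.10, was at or above 0.3 in that pool. At the others the table's limit fixed the sign of delta. In the lowest, at 13.8 to 14.8 Mb, mean delta was -0.13 (SD 0.132 over 9 sites), with 0.325 for the thm1_like pool and 0.456 for the WTa_like pool. The limit fixed the sign there too at the sites with thm1_like indices of 0.273, 0.208 and 0.0833.

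**Figure D3:**
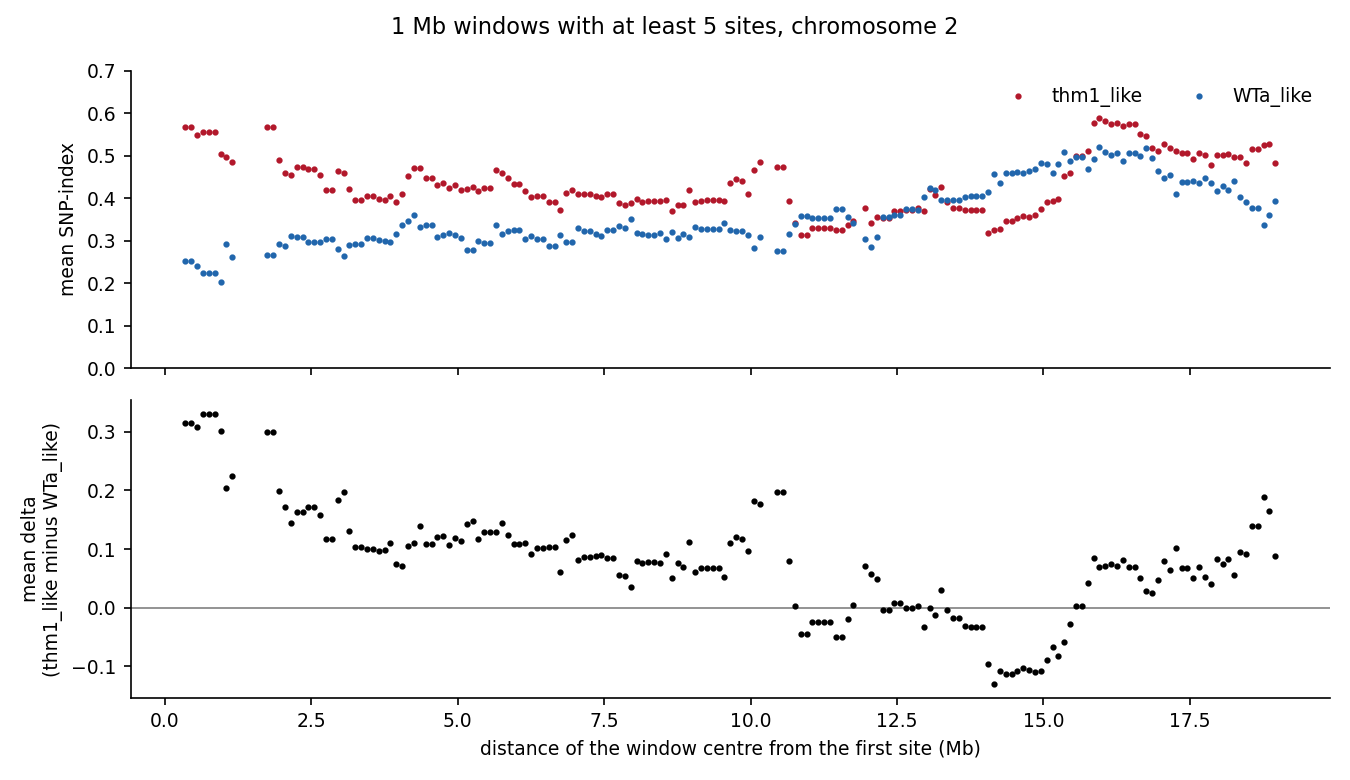
Mean SNP-index of the thm1_like and WTa_like pools (top) and mean delta (bottom) in 1 Mb windows moved in steps of 100 kb, against the distance of the window centre from the first site in Mb. Neighbouring windows share sites. Mean delta runs from 0.33 in the highest window near the start to -0.13 in the lowest window.

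A two-sided Fisher's exact test was run on the reads of each site, with Benjamini-Hochberg adjustment over the 1817 sites of the whole table with 10 or more reads in each pool. The test compares 2 libraries, not the conditions. Of 186 tested sites on chromosome 2, 10 passed an adjusted p of 0.05, or 5.38%. The background over all 1817 tested sites, chromosome 4 included, was 12.6%. By direction, 9 were higher in the thm1_like pool (background 8.2%) and 1 was lower (background 4.4%). Among the 94 tested sites with both indices at or above 0.3, 1 passed, and it was higher. At every other site that passed, the table's lower limit fixed the sign of delta. G-to-A sites made up 8 of the 10, all of them higher and all at or before 4019884, among 68 tested. C-to-T sites made up the other 2, among 118 tested. The unadjusted p was at or below 0.05 at 26 of the 186 sites, against a background of 27.7% over all tested sites. Of the 26, 25 were higher in the thm1_like pool (background 16.2%) and 1 was lower (background 11.5%). Only 6 of the 26 had both indices at or above 0.3, and all 6 were higher. At the rest the limit fixed the sign.

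SKIP3 (AT2G02350), named for its product's interaction with SKP1, a core subunit of SCF ubiquitin ligases, held the site of largest delta among the 10. At the substitution G617485A, written as WTa base, position counted from 1 at the start of chromosome 2, and other base, 9 of 13 thm1_like reads lacked the WTa allele (interval 0.386 to 0.909), against 0 of 15 WTa_like reads (interval 0 to 0.218, and 20.0% by the limit of 3 counts). Delta was 0.69 (adjusted p = 0.00348, Fisher's exact test). The neighbouring site 28 kb onward, G645581A, had 9 of 23 reads in the thm1_like pool and 1 of 22 in the WTa_like pool (delta 0.35), and did not pass (exact adjusted p = 0.0673).

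Outside gene bounds, G828170A lay 109 bp from SUT2 (AT2G02860), a sucrose transporter gene. Reads without the WTa allele were 22 of 35 in the thm1_like pool and 10 of 42 in the WTa_like pool (delta 0.39, exact adjusted p = 0.0164). G2322200A lay 15 bp from MOD1 (AT2G05990), which encodes the enoyl-ACP reductase of fatty acid synthesis, with 21 of 37 reads in the thm1_like pool and 5 of 30 in the WTa_like pool. Its delta was 0.40 (exact adjusted p = 0.0165). G921067A, 2396 bp from the expansin gene EXPA15, had a delta of 0.32 (exact adjusted p = 0.0377). G2250483A, 5632 bp from the serine carboxypeptidase-like gene scpl38, had a delta of 0.42 (exact adjusted p = 0.0301). All of these belong to the first block.

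G566042A lay in the RNA gene AT2G04205, with TOM3 as the nearest protein-coding gene at 2675 bp. With 13 of 21 reads in the thm1_like pool and 5 of 25 in the WTa_like pool it passed narrowly (delta 0.42, exact adjusted p = 0.0497). With all sites tested regardless of depth its adjusted p was 0.0517. After the first 2 blocks, 2 further sites lay outside gene bounds. G3565763A, 10702 bp from AT2G07750, had 15 of 26 reads in the thm1_like pool and 3 of 23 in the WTa_like pool (delta 0.45, exact adjusted p = 0.0272). G4019884A, 421 bp from AT2G10450, had 21 of 35 reads in the thm1_like pool and 5 of 32 in the WTa_like pool (delta 0.44, exact adjusted p = 0.00839).

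The 2 C-to-T sites that passed lay in different blocks and went opposite ways. C14971313T in MOR1 (AT2G35630), which encodes a microtubule-associated protein, had 9 of 41 thm1_like reads (interval 0.106 to 0.376) against 24 of 39 WTa_like reads (interval 0.446 to 0.766). Delta was -0.40 (adjusted p = 0.0112, Fisher's exact test). C17661337T lay 2016 bp from LBD16, a transcription factor gene of lateral root formation, with 30 of 45 reads in the thm1_like pool and 10 of 34 in the WTa_like pool. Its delta was 0.37 (exact adjusted p = 0.0202). MOR1's neighbours on either side in the same block were 14949700 in XEG113, with a delta of 0.03, and 14991672, with a delta of -0.04.

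**Figure D4:**
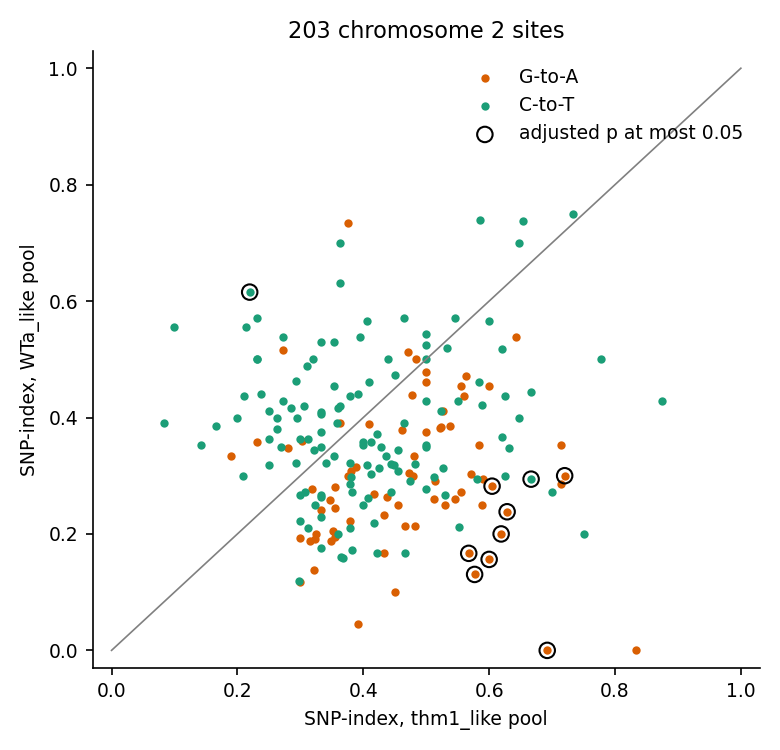
SNP-index in the thm1_like pool (horizontal) against the WTa_like pool (vertical) for the 203 sites, coloured by class, with the 10 sites at an adjusted p of at most 0.05 circled and a line of equal indices. Of the circled sites, 9 lie below the line and 1 above it, and the empty lower left corner is the table's limit of 0.3. Only 1 circled site has both indices at or above 0.3. At the others that limit fixed the side of the line.

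No site of either class came near fixation in a pool on this chromosome. The highest thm1_like index was 0.875 and the highest WTa_like index was 0.750. The 0.875 rested on 7 of 8 reads at C13664404T in AT2G32160 (interval 0.473 to 0.997), against 3 of 7 WTa_like reads. Where each pool had 10 or more reads, C16439870T in AT2G39360 was highest in the thm1_like pool, with 21 of 27 reads (0.778) against 13 of 26 WTa_like reads (0.50). It was followed by C18548215T in HUB1 (AT2G44950), a gene of histone H2B ubiquitination. HUB1 had 9 of 12 thm1_like and 3 of 15 WTa_like reads, a delta of 0.55 and an exact adjusted p of 0.0552. Next came G2250483A, with 18 of 25 thm1_like and 9 of 30 WTa_like reads. G2350955A in AT2G06025 had 15 of 21 thm1_like and 6 of 17 WTa_like reads. C13048755T in AT2G30630 had 7 of 10 thm1_like and 3 of 11 WTa_like reads. The highest WTa_like index at that depth was at 16534804 in AT2G39670, with 17 of 29 thm1_like and 17 of 23 WTa_like reads. Second was 16495451, 368 bp from AT2G39518, with 17 of 26 thm1_like and 14 of 19 WTa_like reads. Both pools were high at both sites. C15995441T followed, with 11 of 17 thm1_like and 21 of 30 WTa_like reads. C14747841T had 4 of 11 thm1_like and 7 of 10 WTa_like reads. C12850933T had 8 of 22 thm1_like and 12 of 19 WTa_like reads. The thm1_like index was 0.364 at C14747841T and at C12850933T.

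An index of 0 in 1 pool with at least 0.5 in the other was found at 2 sites, both with 0 in the WTa_like pool. The first is the SKIP3 site. The second, G3012478A, 145 bp from AT2G07240, had 10 of 12 reads in the thm1_like pool and 0 of 8 in the WTa_like pool (interval 0 to 0.369, and 37.5% by the limit of 3 counts). Its delta of 0.83 was the largest of the 203, and its 8 WTa_like reads are below the minimum of 10 set for the test. With no read minimum it passed (exact adjusted p = 0.0132). At the other end, C9223184T in SFH3 (AT2G21540), a gene of the SEC14-like lipid transfer proteins, had the most negative delta, -0.46, from 1 of 10 thm1_like and 5 of 9 WTa_like reads. Apart from MOR1, the other low values were -0.36 at G4709984A (3 of 8 thm1_like and 11 of 15 WTa_like reads) and -0.34 at both C12873809T in the glycosyltransferase gene UGT87A2 (3 of 14 thm1_like and 5 of 9 WTa_like reads) and C13543744T in the pseudogene AT2G31860 (3 of 13 thm1_like and 4 of 7 WTa_like reads). None of these 4 had 10 reads in both pools, so none was tested.

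The stretches differed in the genes they hit, as gene content along the chromosome does. Before 7443462, protein-coding bounds held 9 of the 80 sites (11.3%, exact interval 5.28% to 20.3%) and pseudogenes held 37. Protein-coding bounds cover 25.0% of that span and pseudogene bounds 27.3%. In Arabidopsis the centromere of this chromosome lies in this part, in a region rich in transposons and poor in genes. In the longest C-to-T block, protein-coding bounds held 55 of 80 sites (68.8%, interval 57.4% to 78.7%), where they cover 61.4% of the span. After it, the 43 sites included 28 in protein-coding bounds (65.1%, interval 49.1% to 79.0%), where they cover 66.6%, and 0 in pseudogenes. The site share in protein-coding bounds was below the covered share in the first stretch, whose interval does not reach 25.0%. That interval counts all 80 sites as separate. They include the 19 with a neighbour within 100 bp, 12 in pseudogenes and 7 outside gene bounds, so it is too narrow. None of those 19 lay in protein-coding bounds, so leaving them out keeps all 9 sites there and raises their share. The sites kept were 59 that were G-to-A and 2 that were C-to-T. No interval was computed for that higher share, so a shortfall against 25.0% is not established without the 19. In the other stretches the interval contains the covered share.

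Over the chromosome, 92 sites lay in the bounds of 89 protein-coding genes, 40 in pseudogenes, 2 in other RNA genes and 69 outside gene bounds. Of those 69, 23 lay within 1000 bp of a protein-coding gene. AT2G26790 held 3 sites, at 11425389, 11426982 and 11427734, with deltas of -0.18, -0.16 and 0.07. AT2G17110 held 2, at 7443462 and 7445930, the first sites of the longest block, with deltas of 0.08 and 0.25. Gene bounds do not separate exons from introns, and no genome sequence was used here, so no site was assigned to a codon or a splice site.

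Genes were grouped by words in their symbols and synonyms. The kinase group held 3 sites of the 203, for 84 such genes on the chromosome. They lay in STY8, a kinase that phosphorylates chloroplast transit peptides (delta -0.16), AT2G25790 (0.21) and the MAP kinase gene MPK20 (0.28). The group of transcription factors and DNA-binding proteins held 5, for 87 genes: HAT9, a homeodomain-leucine zipper gene (0.21), WRKY21 (-0.27), the zinc finger genes ZFN2 (-0.10) and CZF1 (0.17), and WRKY46 at 19044037 (0.07). BAS1, a cytochrome P450 that inactivates brassinosteroids, had a delta of -0.23 at 11383206, and the glutamate receptor-like gene GLR2.8 had -0.02. None of these 10 sites passed the adjusted test. The word groups of transporters or channels, F-box, disease resistance and ribosomal genes held 0 sites. The F-box words matched 1 gene of the chromosome, the disease resistance words 2 and the ribosomal words 10, so groups made from words are incomplete. A group with 0 sites does not mean that no gene of that kind was hit.

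Set beside the same classes on the other chromosomes, mean delta was 0.08 on chromosome 2 (SD 0.197 over 203 sites), while chromosome 1 had 0.06 (SD 0.261), chromosome 3 had 0.12 (SD 0.214), chromosome 4 had 0.38 (SD 0.273) and chromosome 5 had -0.08 (SD 0.211). These differences were not tested, because sites of a chromosome are linked and each pool is 1 library. Both classes were common on chromosome 2, with 36.5% G-to-A, as on chromosome 3 (27.1%) and chromosome 5 (60.4%), whereas chromosomes 1 and 4 had 91.4% and 89.4%. Neighbouring sites changed class in 10.9% of pairs on chromosome 2, against 8.85% to 18.5% on the others. A delta of 0.5 or more was found at 3 sites of chromosome 2 and a delta of -0.5 or less at 0, against 61 and 0 on chromosome 4. The share of tested sites that passed, 5.38%, stood against 47.8% on chromosome 4 and 14.1%, 6.92% and 6.57% on chromosomes 1, 3 and 5.

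**Figure D5:**
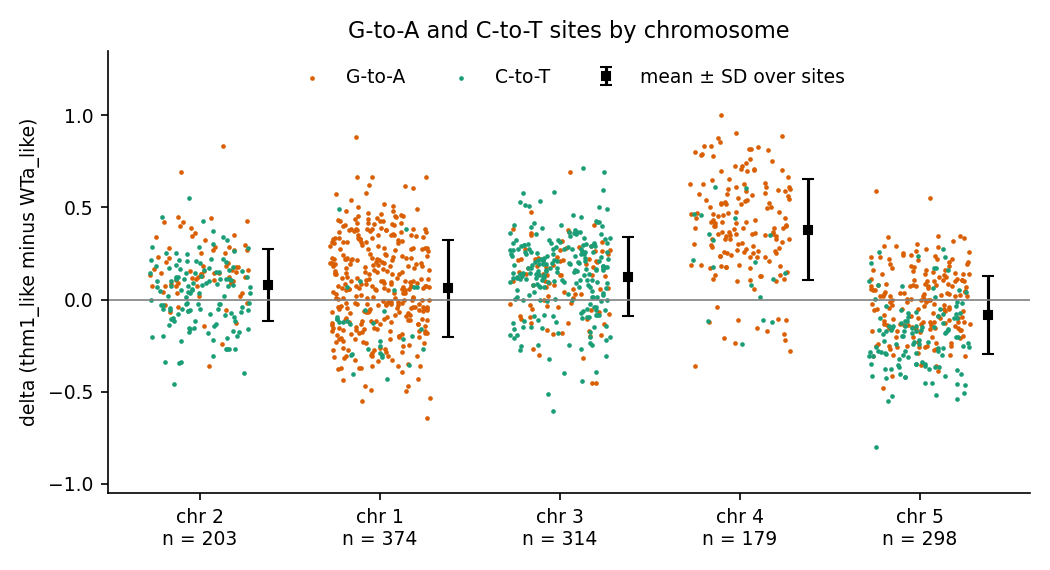
Delta (thm1_like minus WTa_like) of each site of both classes by chromosome, with points spread sideways at random, and the mean with its SD over sites beside each group. Chromosome 2 has a mean of 0.08 (SD 0.197), against 0.38 (SD 0.273) on chromosome 4.

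Other variants of chromosome 2 were set beside these sites. Its 46 other substitutions had a mean delta of 0.01 (SD 0.194), and 31 of them had another variant site within 100 bp. Over its 50 indels the mean index was 0.224 for the thm1_like pool and 0.360 for the WTa_like pool, and mean delta was -0.14 (SD 0.253).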

How the data were processed

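Per the submitters' processing notes the genome build was TAIR10. The aligner, caller and filters were not given in the sources used here. Per the file headers, the deposited table gives counts of reference and alternative reads per site and pool, and the SNP-index as a fraction from 0 to 1. At each of the 1990 sites this fraction lay within 0.005 of the recomputed share of non-WTa reads. Indices and delta were recomputed from the counts (Python 3.11.15, scipy 1.17.1), in total 52167 thm1_like, 49615 WTa_like and 25833 WTa reads.

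Fisher's exact test was run on the whole table and checked on simulated data. Genes come from a RefSeq table of assembly TAIR10.1, which gives bounds only. The sites named are those that passed, the 5 most extreme at either end of delta and of each pool's index, the ends of blocks, and those at an index of 0 in 1 pool. A repeatedly hit gene, PAL1, the sites in close clusters and the neighbours of named sites were chosen after their values were seen, as were the stretches and the 2 Mb bins. Members and lists were chosen with earlier results of these data known.

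Alternatives were read minimums, test and adjustment, depth limits, window and block settings, and 2 added after the data were seen.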

Additional observations from a re-analysis of the deposited data

How the results depend on the processing

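Of 80 recomputed main values, 74 kept their direction and stayed close to the reported one. Close meant within a set factor for counts, and within an interval from counting error for means. Some settings could hardly move a value. The deposited delta is the same quantity rounded, and the limit on high depth kept all 186 tested sites. With Bonferroni adjustment over the 1817 tested sites, 0 of the chromosome 2 sites passed by Fisher's exact test, 0 higher and 0 lower, against 37 of the 1817 (2.04%), while 26 of the chromosome 2 sites had an unadjusted p at or below 0.05. With the mid-p version 14 of 186 passed (7.53%), against 15.4% of all tested sites. The smallest Bonferroni p was 0.188, at the SKIP3 site. When all sites were tested with no read minimum, the count stayed at 10 of 203 (4.93%), against 11.6% of all sites. The site at 566042 then missed the threshold (exact adjusted p = 0.0517) and 3012478, the site of largest delta, passed (exact adjusted p = 0.0132). The HUB1 site at 18548215 passed with mid-p (Fisher's exact test, adjusted p = 0.0331). Restricted to sites with both indices at or above 0.3, chosen after the data were seen, mean delta was 0.0978 over 30 G-to-A sites, against 0.17 over all 74, and 0.0482 over 101 sites of both classes, against 0.08. By construction this drops the sites whose sign the table's limit fixes. With blocks of at least 3 sites there were 11 blocks, against 7. None of the 19 sites with a neighbour within 100 bp had passed, so leaving them out, also chosen afterwards, could not change the counts of sites past the threshold. The highest window ranged from 0.30 to 0.38 and the lowest from -0.14 to -0.10 over the window settings. No paired analysis was possible because each group had 1 library. Depth limits single sites: the 13 thm1_like reads of the SKIP3 site give an interval of 0.386 to 0.909.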
